A study of Mus musculus with 20 samples.

Results

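Growth with hexavalent chromium was compared with ordinary growth in mouse Hepa-1 hepatoma cells of passage 25, when both had been treated with benzo[a]pyrene (B[a]P) for 8 hours. The members are the 4 libraries whose labels give that passage and treatment, of 20 in the series. In 2 of them the cells had been kept in Cr(VI) for all 25 passages before B[a]P (Cr(VI)-grown), and in the other 2 they had been kept in ordinary medium (control-grown). Libraries were paired by the replicate number in their titles, which gave a replicate 1 pair and a replicate 2 pair. The other groups of the series were the same cells with the solvent DMSO, cells that had 20 passages with Cr(VI) and 5 without it, and an earlier set at passage 20. The series measured RNA in duplicate to ask how long growth with Cr(VI) alters the response to B[a]P, and all its groups are 1 established cell line with no genetic change named in the labels. The labels print 0.5 mM Cr(VI) and 5 mM B[a]P while the title speaks of low concentrations, so neither unit was used. They do not say whether duplicates were separate cultures, so a p-value here reflects no more than how far these libraries spread, and that spread may be technical.

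Cr(VI) enters cells through anion transporters and is reduced inside them, which leaves Cr(III) bound to DNA and protein and draws on glutathione and other reductants. B[a]P is a combustion product that binds the aryl hydrocarbon receptor (AHR). The receptor then pairs with ARNT and switches on cytochrome P450 genes such as Cyp1a1, whose enzymes turn B[a]P into metabolites that damage DNA. Liver cells answer both agents through NRF2, which drives antioxidant and conjugating enzymes, and through p53, which drives arrest and repair genes.

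The promoters of the main AHR reporter gene and of an antioxidant gene that was lower in both pairs are printed here, since both stand for the pathways that the agents act on. They run from 250 bases before to 50 after the start of transcription, 5′ to 3′ on the gene's strand, from RefSeq on GRCm38.p6. Capitals mark the AHR core GCGTG and the NRF2 element TGACNNNGC, searched on both strands, which did not overlap here.
Cyp1a1, chr9:57697363-57697662, plus strand: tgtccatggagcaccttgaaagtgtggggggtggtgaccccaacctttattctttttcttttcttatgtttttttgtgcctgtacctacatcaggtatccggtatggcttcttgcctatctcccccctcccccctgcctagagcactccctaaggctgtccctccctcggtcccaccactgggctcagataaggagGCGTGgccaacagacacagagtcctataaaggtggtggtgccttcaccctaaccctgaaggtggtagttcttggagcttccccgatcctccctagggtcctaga
Gpx2, chr12:76795505-76795804, minus strand: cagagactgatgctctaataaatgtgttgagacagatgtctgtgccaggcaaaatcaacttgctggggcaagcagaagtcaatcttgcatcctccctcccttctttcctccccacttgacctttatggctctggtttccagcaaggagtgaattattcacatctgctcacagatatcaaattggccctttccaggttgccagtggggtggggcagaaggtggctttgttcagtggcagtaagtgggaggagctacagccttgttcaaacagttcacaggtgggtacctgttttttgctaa
The Cyp1a1 window held 1 AHR core, and the Gpx2 window held neither motif. Among 32851 promoters of this length in the table, 32.4% held an AHR core and 12.4% an NRF2 element, and among 13550 promoters of tested genes 48.4% and 14.2%. Of the 24 genes that lead the comparison below, 19 had a promoter in the table, and 9 of their 25 promoters held an AHR core and 2 an NRF2 element. A match says only that these letters lie in the window.

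The 4 libraries held between 31596536 and 37930720 counts, and the 20 libraries between 20976045 and 37930720. Levels are given as CPM, a gene's counts relative to the size of its library, with library sizes scaled by TMM. The cells expressed the liver products Alb at 2962 and 5290 CPM and Trf at 1269 and 2268 CPM in control-grown replicates 1 and 2. The hepatocyte markers Hnf4a, Apoa1 and Apob were at or near 0 in all 4 libraries, while the stromal markers Dcn and Col1a1 stood between 253 and 788 CPM. Col1a2, Lum, Lrat, Reln and Thy1 were at 0 in all 4, as were the macrophage markers C1qa, C1qb and Marco. Of 10 macrophage markers 4 were tested, and their summed level with the 6 others ranged from 35.0 to 43.3 CPM in control-grown and from 36.1 to 55.8 CPM in Cr(VI)-grown cells.

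1 library stood apart from the rest. In Cr(VI)-grown replicate 1, small nucleolar RNA (snoRNA) genes took 189 CPM of all counts (class totals are relative to total counts, without TMM), against 17.3 to 90.3 CPM in the other 19 libraries. Long noncoding RNA (lncRNA) genes took 9045 CPM, against 2451 to 6232 CPM. The 100 highest genes took 15.7% of its counts, against 16.7 to 34.3% elsewhere. In it 17173 gene IDs had a count, against 16049 to 16491 in the other 5 replicate 1 libraries of passage 25. On this last measure it lay within the range of the other 19 libraries, 14776 to 17278. Results below for Cr(VI)-grown against control-grown cells under B[a]P at passage 25 rest in part on this library, except values of the replicate 2 pair alone. Fits for the other comparisons include it when the spread is estimated. Its part in these results was not tested except where values without it are given.

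**Figure D1:**
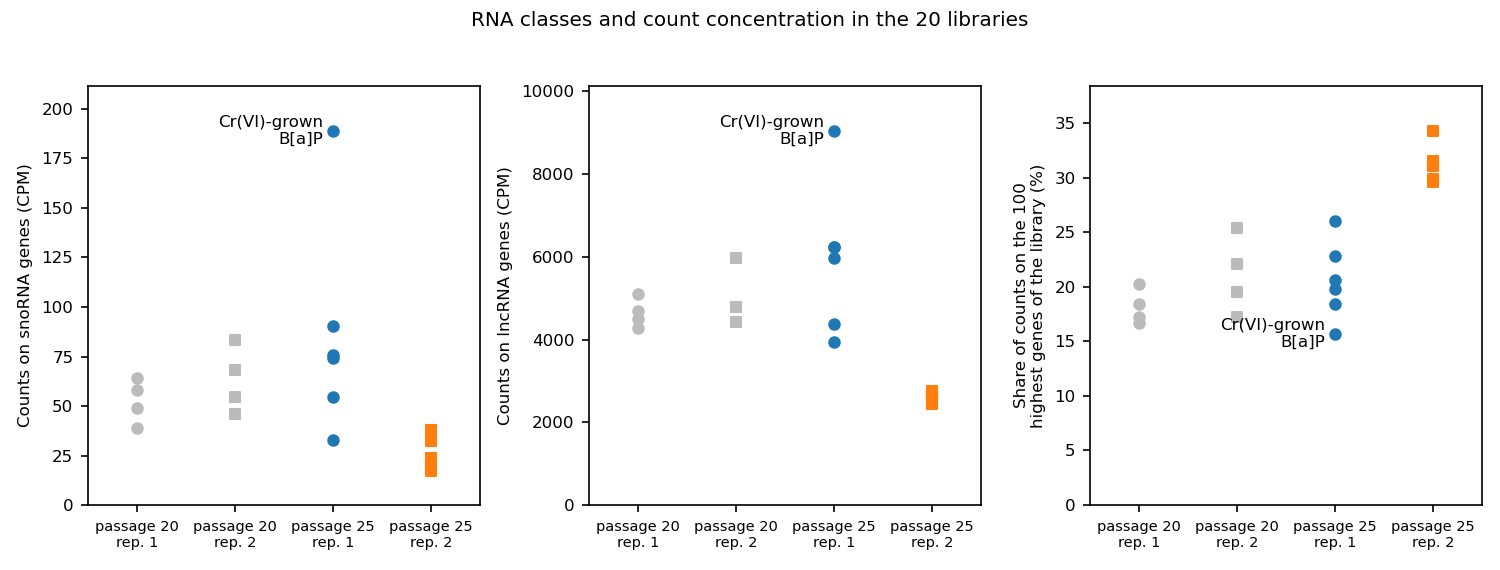
CPM on snoRNA genes (left) and lncRNA genes (middle), and the percent of counts on the 100 highest genes (right), in each of the 20 libraries by passage and replicate number; each point is 1 library. Cr(VI)-grown B[a]P replicate 1 of passage 25 is highest in the first 2 panels, at 189 and 9045 CPM, and lowest in the third, at 15.7%.

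No gene passed the test for Cr(VI)-grown against control-grown cells under B[a]P. Of 13692 genes tested with edgeR's quasi-likelihood test with the replicate number as a block, 0 (0%) had a Benjamini-Hochberg adjusted p under 0.05, and the smallest adjusted p was 0.442. At an unadjusted p under 0.05 there were 1272 genes, 784 higher (5.73%) and 488 lower (3.56%) in Cr(VI)-grown cells. DESeq2 with the same block called 17 genes, 12 higher and 5 lower. The higher ones were Atg9b, Bicdl2, Klhdc8b, D930048N14Rik, Lime1, Sfxn4, Apobr, Pidd1, Snhg20, A330032B11Rik, Tspoap1 and Ddah2, and the lower ones Svep1, Gpx2, Gng4, Krt19 and Gpx2-ps1. Tspoap1 and Ddah2 are named only because DESeq2 called them.

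How genes at an unadjusted p under 0.05 split into higher and lower depended on scaling and on single libraries. Each fit counted its own set of genes at that threshold, so the 1272 genes above were not followed. TMM put the median log2 fold change of all genes at -0.12, upper-quartile scaling at 0.01 and total-count scaling at 0.12. Upper-quartile scaling gave 1068 higher and 171 lower genes at an unadjusted p under 0.05, and total-count scaling 1198 and 89. Without Cr(VI)-grown replicate 1 the split was 217 higher and 536 lower, and without control-grown replicate 1 it was 201 and 470. Without Cr(VI)-grown replicate 2 it was 1487 and 1815, and without control-grown replicate 2 it was 1072 and 1285. Without the block it was 83 and 7. In each of these fits 0 genes passed the adjusted threshold.

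The 2 pairs did not show the same differences. Over 11692 genes at a mean of at least 1 CPM, the difference between Cr(VI)-grown and control-grown cells had a Pearson r of -0.18 and a Spearman rho of -0.26 between the pairs, as a description across genes that share 4 libraries. The sign was the same for 43.3% of these genes. The differences, as log2(CPM + 0.5), had an SD of 0.66 in the replicate 1 pair and 0.38 in the replicate 2 pair. At least 2-fold differences were found for 1588 genes (13.6%) in the replicate 1 pair and for 284 (2.43%) in the replicate 2 pair. Atg9b, Sfxn4 and 3300005D01Rik were at least 2-fold higher in both pairs, and Svep1, Gng4, Mybpc3, Lrfn4 and Alpl at least 2-fold lower, while 13 genes were 2-fold higher in the first pair and lower in the second and 1 gene the reverse. Alpl and 3300005D01Rik were named after their values were seen.

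The same comparison gave closer pairs in libraries that are not among these 4. Under DMSO at passage 25, r between the pairs was 0.65 with 75.3% of 11583 genes of the same sign. Under B[a]P at passage 20, r was 0.83 with 82% of 11802 genes of the same sign. The replicate 2 pair under B[a]P at passage 25 correlated at 0.44 and 0.59 with the 2 DMSO pairs of passage 25 and at 0.31 and 0.45 with the 2 B[a]P pairs of passage 20, over genes. For the replicate 1 pair these values were -0.56 and -0.22, then -0.04 and -0.17. The replicate 1 pair, which holds the library that stood apart, thus had an r below 0 with each of these pairs, and the replicate 2 pair one above 0.

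**Figure D2:**
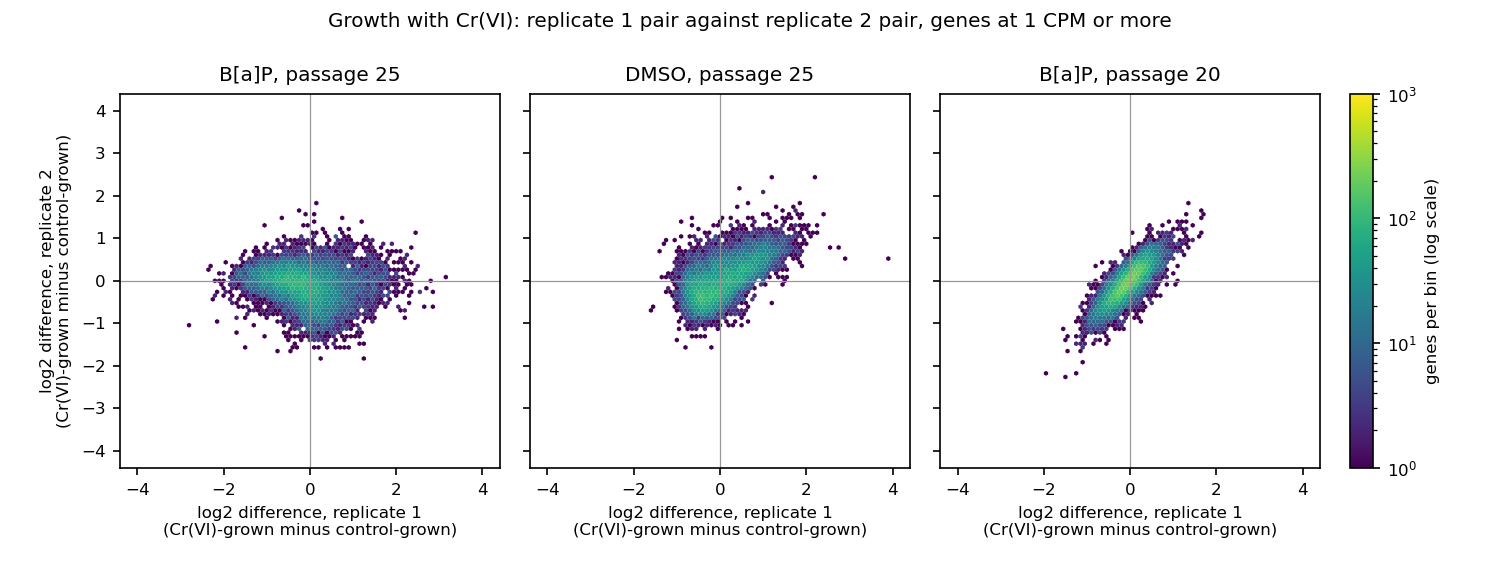
Log2 difference between Cr(VI)-grown and control-grown cells in the replicate 1 pair (horizontal) and the replicate 2 pair (vertical), one panel per treatment and passage; colour gives genes per bin on a log scale. The cloud has no rising slope under B[a]P at passage 25 (r = -0.18) and rises under DMSO at passage 25 (r = 0.65) and under B[a]P at passage 20 (r = 0.83). All panels show the 11692 genes at a mean of at least 1 CPM under B[a]P at passage 25. The r values of the other panels are over 11583 genes for DMSO and 11802 for passage 20, each filtered on its own libraries.

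The pairs also differed by the base composition and length of the transcripts, for the 94% of genes with a GENCODE transcript. In the replicate 1 pair the median log2 difference was 0.19 for 3310 genes under 45% GC and -0.36 for 2924 genes over 55% GC. In the replicate 2 pair it was -0.27 and 0.05. Under DMSO it was -0.42 and 0.52 in the first pair and -0.17 and 0.29 in the second. Transcripts up to 2 kb had medians of -0.34 and 0.13 in the replicate 1 and 2 pairs, and those over 4 kb 0.09 and -0.28. GC content and length thus went in opposite directions with the difference in the 2 pairs, and their part in the gene results below was not tested.

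**Figure D3:**
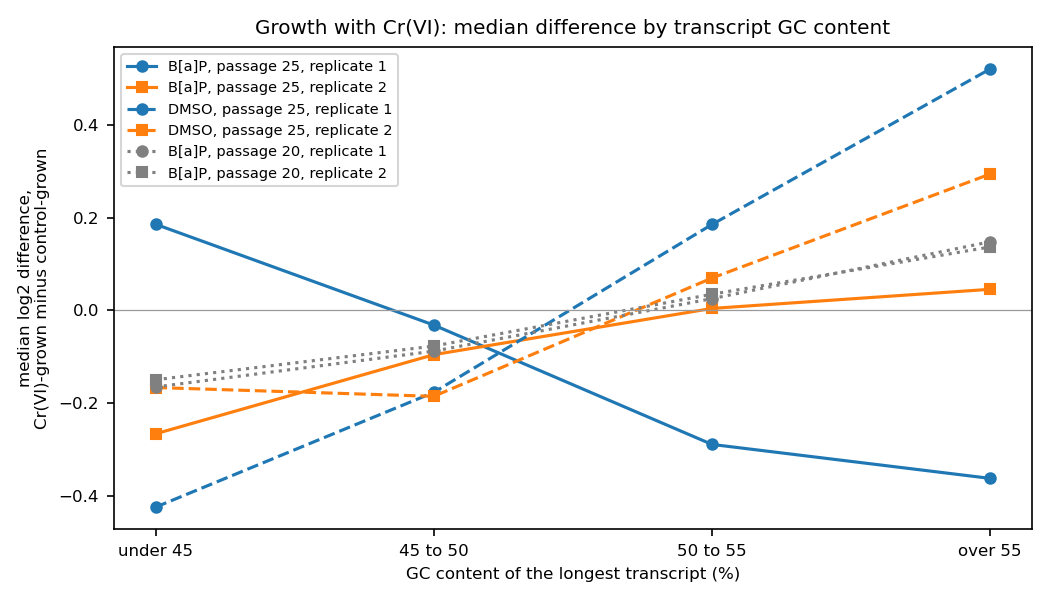
Median log2 difference between Cr(VI)-grown and control-grown cells by GC content of the longest transcript, with 1 line per pair of libraries. The replicate 1 pair under B[a]P at passage 25 goes down from 0.19 to -0.36 with GC content, and the other 5 lines end higher than they begin.

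The genes named next had the same direction in both pairs. That was so of 2340 genes that were higher (17.1% of those tested) and 3824 that were lower (27.9%), and 0.913% of all genes were at least 1.5-fold higher in both pairs and 0.446% (61 genes) at least 1.5-fold lower. In 902 genes (6.59%) both Cr(VI)-grown libraries were above both control-grown ones, and in 846 (6.18%) both were below. For each direction the 12 genes with the smallest p are described, and their adjusted p in edgeR's quasi-likelihood test was 0.442 for every one. The groups did not overlap for 8 of the 12 higher and 9 of the 12 lower genes, a count that the choice of genes favours. Overlap ignores the pairing, and the replicate sets of passage 25 differed. The 100 highest genes took 29.6 to 34.3% of counts in replicate 2, and 18.4 to 26% in replicate 1 without the library that stood apart. Overlap between groups thus also reflects differences between replicates.

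Atg9b, which encodes a membrane protein of the autophagy pathway, led the higher genes (Entrez ID 213948, chromosome 5, 24384181 to 24392143). It stood at 11.2 and 3.64 CPM in control-grown replicates 1 and 2 and at 63.5 and 8.28 CPM in Cr(VI)-grown replicates 1 and 2. It was higher within each pair, but Cr(VI)-grown replicate 2 lay below control-grown replicate 1. The log2 fold change was 1.87 ± 0.31 (SE, n = 2 libraries a group). Under DMSO it was 0.71 ± 0.32, and in the B[a]P pairs of passage 20 the log2 differences were 0.65 and 0.17.

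Pidd1 encodes the scaffold of the PIDDosome, a complex that activates caspase-2, and is a p53 target. Its level was 18.9 and 15.8 CPM in control-grown and 49.5 and 24.8 CPM in Cr(VI)-grown cells. The groups did not overlap, and the log2 fold change was 1.01 ± 0.22 (SE). Apobr, a receptor for lipoproteins that carry apolipoprotein B, stood at 8.03 and 11.1 CPM against 18.5 and 20.4 CPM. Both Cr(VI)-grown libraries were above both controls, with a log2 fold change of 1.04 ± 0.23 here, 0.97 ± 0.24 under DMSO and 0.10 at passage 20.

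Lime1, an adaptor of immune receptor signalling, went from 17.2 and 12.2 CPM to 58.1 and 22.1 CPM. Sfxn4, a mitochondrial protein needed for complex I assembly, went from 0.868 and 0.771 CPM to 2.79 and 2.11 CPM, and Klhdc8b, a kelch protein with a role in cytokinesis, from 1.86 and 1.32 CPM to 8.18 and 2.84 CPM. In these 3 genes the groups did not overlap. Slc7a14, of the cationic amino acid transporter family, stood at 12.9 and 9.18 CPM against 35.9 and 15.8 CPM, also without overlap. Bicdl2, a motor cargo adaptor, stood at 1.01 and 0.257 CPM against 7.26 and 0.766 CPM, and here the groups overlapped.

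Noncoding genes made up 4 of the 12. The snoRNA host gene Snhg20 stood at 11.0 and 8.70 CPM in control-grown and 40.9 and 12.8 CPM in Cr(VI)-grown cells, and the lncRNA A330032B11Rik at 3.37 and 3.49 CPM against 9.24 and 7.28 CPM. Both were without overlap. The lncRNA D930048N14Rik was higher by log2 differences of 2.10 and 0.66 in the 2 pairs. The snoRNA Snord47, which lies in an intron of the Gas5 host gene, had 21 and 0 counts in control-grown replicates 1 and 2 and 187 and 3 counts in Cr(VI)-grown ones. The groups overlapped for these last 2 genes.

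As a class, 52 of 67 snoRNA genes tested were higher in both pairs and 0 were lower in both, beside 17.1% and 27.9% of all genes. Many of these genes had few counts in the replicate 2 pair. Some had equal raw counts in its 2 libraries, such as Snord100 (1 and 1) and Snord32a (6 and 6). Their sign there came from library size alone, so the tally overstates how far the pairs agree. It was not made with other scalings. The 67 genes are only those that passed the count filter, which can favour genes high in Cr(VI)-grown replicate 1. Snord7, for example, had 1 and 0 counts in control-grown replicates 1 and 2, and 26 and 1 in Cr(VI)-grown ones. How far the filter shaped the tally was not tested. The sizes of the pairs were far apart, with a median log2 difference of 1.11 in the replicate 1 pair and 0.11 in the replicate 2 pair. Under DMSO the medians were 0.03 and 0.29, and under B[a]P at passage 20 they were 0.26 and 0.32. Of 614 lncRNA genes that passed the same filter, 248 were higher and 76 lower in both pairs, with medians of 0.35 and 0.03. The class total was 189 CPM in Cr(VI)-grown replicate 1 and 32.4 CPM in Cr(VI)-grown replicate 2, against 32.6 and 20.3 CPM in the controls. Reads of intronic snoRNAs and of their unspliced hosts cannot be told apart in this table.

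Svep1, a large secreted matrix protein, led the lower genes (Entrez ID 64817, chromosome 4, 58042796 to 58206596). It stood at 11.6 and 20.9 CPM in control-grown replicates 1 and 2 and at 3.73 and 6.67 CPM in Cr(VI)-grown replicates 1 and 2. Both Cr(VI)-grown libraries lay below both controls, and the pairs gave nearly the same size, with log2 differences of -1.51 and -1.58. The log2 fold change was -1.64 ± 0.29 (SE), a level 3.12-fold lower. Under DMSO it was -0.85 ± 0.28, and in the B[a]P pairs of passage 20 the differences were -0.70 and -0.40, so all 6 pairs gave a lower level.

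Gpx2 encodes a selenium-dependent glutathione peroxidase of epithelia and is an NRF2 target (Entrez ID 14776, chromosome 12, 76792335 to 76795554). It stood at 25.9 and 45.1 CPM in control-grown cells and at 7.43 and 24.1 CPM in Cr(VI)-grown cells. The groups did not overlap, and the log2 fold change was -1.31 ± 0.27 (SE). Its processed copy Gpx2-ps1 stood at 8.32 and 15.2 CPM against 2.25 and 8.20 CPM, with a log2 fold change of -1.33 ± 0.31. The 2 sequences are close, so the counting could split 1 gene's reads between them, and the pseudogene's own level is uncertain.

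Krt19, a keratin of simple epithelia and bile duct cells, went from 54.4 and 142 CPM to 11.9 and 75.6 CPM. It was lower within each pair, with log2 differences of -2.15 and -0.91, but the groups overlapped. Gng4, a G protein gamma subunit, went from 14.3 and 25.7 CPM to 5.47 and 12.4 CPM, and Sulf1, which trims sulfate groups from heparan sulfate outside the cell, from 56.1 and 45.6 CPM to 31.7 and 26.9 CPM. Neither overlapped. Both were also lower under DMSO, with log2 fold changes of -0.94 ± 0.28 for Gng4 and -1.02 ± 0.20 for Sulf1, but not at passage 20, where the values were 0.02 and -0.06.

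The other 6 lower genes had log2 fold changes between -1.64 and -0.91. Mybpc3, a myosin-binding protein of heart muscle, stood at 7.45 and 13.0 CPM against 2.02 and 5.25 CPM, and Lrfn4, an adhesion protein of synapses, at 4.36 and 6.28 CPM against 1.85 and 2.15 CPM. Sec24d, a cargo subunit of COPII vesicles, had a log2 fold change of -0.91 ± 0.23 here, -0.15 under DMSO and -1.07 at passage 20. For Mybpc3 these were -1.64, -0.27 and 0.38, and for Lrfn4 -1.37, -0.66 and 0.34. Mybpc3, Lrfn4, Sec24d and Ppfibp2, a liprin, did not overlap between groups. Pdk2, which inhibits pyruvate dehydrogenase, stood at 10.1 and 20.8 CPM against 3.54 and 12.9 CPM, and Pik3ap1, an adaptor of PI3-kinase, at 38.0 and 59.5 CPM against 15.2 and 38.4 CPM. The groups overlapped for these last 2 genes.

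**Figure D4:**
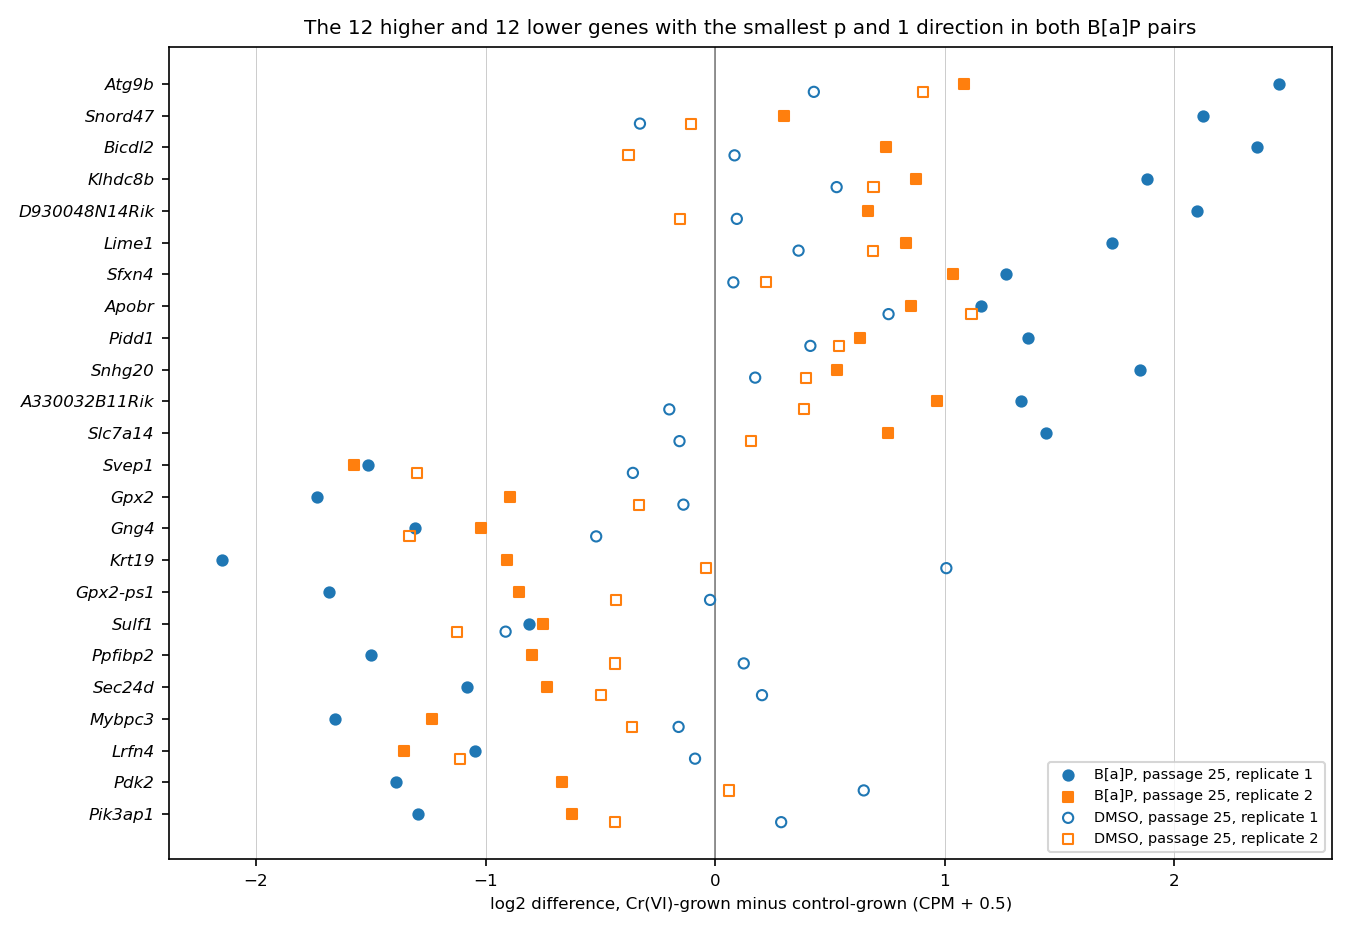
Log2 difference between Cr(VI)-grown and control-grown cells, as log2(CPM + 0.5), in each pair of libraries for the 12 higher and 12 lower genes; filled points are B[a]P and open points DMSO at passage 25, circles replicate 1 and squares replicate 2. Svep1 has the same size in both B[a]P pairs (-1.51 and -1.58), and Krt19 under DMSO reaches 1.01 in replicate 1, on the other side of 0.

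For the gene lists that follow, passing the test refers to edgeR's test, and counts of members with the same sign in both pairs are on the TMM scale unless another is named. Over all genes the higher and lower shares were 17.1% and 27.9% on that scale, 20.9% and 20.9% with each pair centred on its own median over all genes, and 26.5% and 11.9% with total-count scaling.

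Among AHR target genes 0 of 13 tested passed, and 0 were higher and 7 lower in both pairs. These counts were 1 and 7 centred, and 2 and 4 with total-count scaling. Cyp1a1, the main B[a]P-metabolising enzyme, stood at 1245 and 1738 CPM in control-grown and 847 and 1861 CPM in Cr(VI)-grown cells. The groups overlapped, the pairs disagreed in sign, and the log2 fold change was -0.16 ± 0.37 (SE, adjusted p = 0.880 in edgeR's test). The 4 DMSO libraries held between 24.5 and 37.3 CPM, so all 4 B[a]P libraries lay far above them. Without Cr(VI)-grown replicate 1 its log2 fold change was 0.34, and with total-count scaling 0.02.

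The other AHR-driven enzymes did not pass edgeR's test either. Cyp1a2 stood at 41.0 and 56.7 CPM against 27.6 and 54.1 CPM, and Cyp1b1 at 8.56 and 6.57 CPM against 13.0 and 3.64 CPM. Nqo1, a quinone reductase shared by AHR and NRF2, stood at 464 and 511 CPM against 297 and 488 CPM. All 3 overlapped between groups. Nqo1 had log2 differences of -0.64 and -0.07 in the pairs here, -0.68 and -0.93 under DMSO and -0.66 and -0.58 at passage 20. The median log2 fold change of the AHR target list was -0.28 here, -0.45 under DMSO and -0.46 at passage 20. Over all genes these medians were -0.12, -0.04 and -0.02. Ugt1a6a, a glucuronosyltransferase that shares exons and so reads with Ugt1a6b, stood at 163 and 178 CPM against 105 and 132 CPM. It did not overlap, with a log2 fold change of -0.51 ± 0.33 here, -0.63 under DMSO and -0.66 at passage 20, the last from the fit to 20 libraries. Tiparp, a feedback inhibitor of AHR, stood at 97.1 and 37.5 CPM against 129 and 24.8 CPM. The repressor Ahrr had 1 and 4 counts in control-grown and 2 and 0 in Cr(VI)-grown cells and was not tested.

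Of the receptor and its partners 0 of 16 passed, with 0 higher and 9 lower in both pairs. Ahr itself stood at 92.9 and 45.1 CPM in control-grown and 92.0 and 23.0 CPM in Cr(VI)-grown cells, with log2 differences of -0.01 and -0.95. The coactivator Ep300 stood at 74.6 and 47.8 CPM against 79.4 and 20.3 CPM. For both genes the difference lay mostly in the replicate 2 pair. With each pair centred on its own median over all genes, 5 of the 16 were lower in both, and with total-count scaling 1.

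NRF2 antioxidant genes had 0 of 25 past the test, 0 higher and 15 lower in both pairs, beside 17.1% and 27.9% of all genes. With each pair centred on its own median the lower count was 14, and with total-count scaling 11 lower and 1 higher. The median log2 difference was -0.67 in the replicate 1 pair and -0.09 in the replicate 2 pair, and its members include Gpx2, described above, which DESeq2 called (adjusted p = 0.0167). G6pdx, which makes NADPH in the pentose phosphate pathway, stood at 413 and 736 CPM against 175 and 647 CPM. Hmox1, the heme oxygenase of the stress response, stood at 112 and 169 CPM against 84.9 and 271 CPM, with opposite signs in the pairs. Without Cr(VI)-grown replicate 1 the list's median minus that of all genes was 0.10, against -0.25 with it, so without that library the list no longer lay below all genes.

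Glutathione transferases and other conjugating enzymes had 0 of 28 past the test, with 1 higher and 14 lower in both pairs, 2 and 11 centred, and 3 and 11 with total-count scaling. Gstp1, an abundant glutathione transferase, stood at 1764 and 3952 CPM against 383 and 3085 CPM, and Por, the reductase that feeds electrons to cytochrome P450, at 594 and 1383 CPM against 194 and 1045 CPM. Both were lower within each pair and overlapped between groups. Their log2 fold changes were -1.23 ± 0.42 and -1.05 ± 0.39 here, against 0.63 and 0.78 under DMSO. Without Cr(VI)-grown replicate 1 the list's median minus that of all genes moved from -0.35 to -0.08.

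Among p53 target genes 0 of 32 passed, and 7 were higher and 7 lower in both pairs. The even split held only with TMM: it was 7 higher and 3 lower centred, and 11 higher and 2 lower with total-count scaling. Btg2, a brake on proliferation, stood at 36.3 and 38.4 CPM in control-grown and 67.0 and 69.5 CPM in Cr(VI)-grown cells. Both Cr(VI)-grown libraries lay above both controls, and the pairs gave much the same size, with log2 differences of 0.88 and 0.85. The log2 fold change was 0.87 ± 0.28 (SE, adjusted p = 0.442), against 0.39 under DMSO and -0.56 at passage 20. Cdkn1a, the p21 inhibitor of the cell cycle, stood at 652 and 1087 CPM against 401 and 1420 CPM, and Mdm2, which marks p53 for breakdown, at 243 and 77.2 CPM against 384 and 59.2 CPM. Both had opposite signs in the 2 pairs. Trp53 stood at 223 and 408 CPM against 134 and 371 CPM.

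DNA repair lists held no gene past the test. Of 38 genes for break and crosslink repair 0 passed, with 5 higher and 6 lower in both pairs, and of 32 for base and nucleotide excision repair 0 passed, with 4 higher and 14 lower. Break repair had 5 and 5 centred and 8 and 2 with total-count scaling, and excision repair 7 and 11, then 8 and 9. Xrcc3, of homologous recombination, stood at 6.87 and 4.63 CPM against 22.1 and 4.71 CPM, a difference of the first pair alone. The checkpoint kinase Chek2 stood at 13.6 and 13.3 CPM against 19.8 and 15.9 CPM, without overlap. The uracil glycosylase Ung stood at 7.04 and 6.46 CPM against 4.41 and 4.83 CPM, and the endonuclease Apex2 at 15.6 and 19.5 CPM against 8.76 and 16.7 CPM. Of these last 2 only Ung did not overlap. Mismatch repair had 0 higher and 4 lower of 9, 0 and 3 centred, and 1 and 0 with total-count scaling.

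S phase genes had 4 higher and 13 lower of 30 in both pairs, and genes of G2 and mitosis 2 higher and 5 lower of 27. The lean to lower did not hold across scalings: S phase genes had 7 and 6 centred and 8 and 9 with total-count scaling, and genes of G2 and mitosis 2 and 3, then 6 and 0. The helicase subunit Mcm6 stood at 145 and 175 CPM against 87.2 and 145 CPM, and the phosphatase Cdc25c at 11.9 and 11.1 CPM against 15.7 and 12.6 CPM. Cdc25c did not overlap. Replication histones had 4 higher and 7 lower of 28, which turned to 7 and 6 centred and 15 and 6 with total-count scaling, and their near-identical copies cannot be counted apart with certainty. None of the genes in these 3 lists passed the test.

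Immediate early genes, which encode fast transcription factors of growth and stress signals, had 0 of 22 past the test but 10 higher and 0 lower in both pairs. The counts were the same with each pair centred on its own median, and 13 higher and 0 lower with total-count scaling. Egr1, a zinc finger factor, stood at 29.3 and 16.8 CPM in control-grown and 86.0 and 21.5 CPM in Cr(VI)-grown cells. It was higher within each pair but overlapped between groups. The log2 fold change was 1.10 ± 0.36 (SE) here, -0.04 under DMSO and -0.62 at passage 20. Fosb, an AP-1 subunit, stood at 1.66 and 0.588 CPM against 3.08 and 1.30 CPM, with a log2 difference of 0.73 in both pairs. Its log2 fold change was 0.25 under DMSO and 0.16 at passage 20. The median log2 fold change of the whole list was 0.07 here, 0.09 under DMSO and 0.11 at passage 20. Over all genes these medians were -0.12, -0.04 and -0.02. The list's median minus that of all genes was 0.18, and it was 0.27 without Cr(VI)-grown replicate 1 and 0.22 without Cr(VI)-grown replicate 2.

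Genes of the ATF4 amino acid stress response had 0 of 19 past the test, with 1 higher and 11 lower in both pairs, 2 and 10 centred, and 3 and 9 with total-count scaling. Psat1, of serine synthesis, stood at 349 and 512 CPM against 159 and 392 CPM, and Shmt2, of one-carbon metabolism, at 204 and 436 CPM against 95.1 and 367 CPM. Both overlapped between groups. Shmt2 had a log2 fold change of -0.65 here and 0.89 under DMSO. Chaperones of the endoplasmic reticulum had 0 higher and 11 lower of 18 (0 and 8 centred, 2 and 4 with total-count scaling), with Herpud1, of protein degradation there, at 53.9 and 86.3 CPM against 28.2 and 67.6 CPM. Cytosolic heat shock genes had 0 higher and 9 lower of 16 (0 and 5 centred, 1 and 2 with total-count scaling), with log2 differences of -0.53 and -0.29 for the cochaperone Bag3. Leaving out Cr(VI)-grown replicate 1 moved the median of the ATF4 list minus that of all genes from -0.31 to 0.01.

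Lipid synthesis genes had 0 of 14 past the test and 0 higher and 11 lower in both pairs. With each pair centred on its own median 9 were lower, and with total-count scaling 5 were lower and 1 was higher. Acaca, the acetyl-CoA carboxylase that opens fatty acid synthesis, stood at 112 and 153 CPM in control-grown and 66.4 and 77.6 CPM in Cr(VI)-grown cells. The groups did not overlap, and the log2 fold change was -0.86 ± 0.23 (SE, adjusted p = 0.442), against -0.60 under DMSO and -0.34 at passage 20. Its mitochondrial relative Acacb stood at 3.59 and 6.87 CPM against 1.21 and 4.87 CPM. The list's median minus that of all genes was -0.17, and -0.26 without Cr(VI)-grown replicate 1.

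Sterol synthesis had 1 higher and 11 lower of 22 in both pairs, and fat oxidation 0 higher and 7 lower of 13. Sterol synthesis had 2 and 9 centred and 1 and 7 with total-count scaling, and fat oxidation 0 and 4, then 1 and 7. The sterol median minus that of all genes was -0.21. It was -0.37 without Cr(VI)-grown replicate 1 and 0.04 without Cr(VI)-grown replicate 2. The median log2 fold change of the sterol list was -0.33 here, -0.54 under DMSO and -0.26 at passage 20. The fat oxidation medians were -0.60 in the replicate 1 pair and -0.02 in the replicate 2 pair, and its median minus that of all genes moved from -0.38 to -0.02 without Cr(VI)-grown replicate 1. Srebf2, the factor that drives sterol genes, stood at 180 and 257 CPM against 104 and 179 CPM. Cpt1a, which carries fatty acids into mitochondria for oxidation, stood at 93.0 and 110 CPM in control-grown and 62.0 and 67.3 CPM in Cr(VI)-grown cells. Cpt1a did not overlap and was lower by a like amount in both pairs (-0.58 and -0.70), with log2 fold changes of -0.44 under DMSO and -0.53 at passage 20. None of the genes in these lists passed the test.

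Oxidative phosphorylation and ribosomal protein genes split the pairs most among the protein-coding lists. Of 26 oxidative phosphorylation genes 0 passed, with 0 higher and 5 lower in both pairs, and the median log2 difference was -1.07 in the replicate 1 pair and 0.08 in the replicate 2 pair. Of 27 ribosomal protein genes 0 passed, with 1 higher and 3 lower, and medians of -0.94 and 0.11. Ndufv1, a complex I subunit, had log2 differences of -1.48 and -0.22 in the pairs. Under DMSO the medians of the 2 lists were 0.42 and 0.23, then 0.50 and 0.39. Glycolysis and hypoxia genes had 2 higher and 13 lower of 23 (3 and 12 centred, 3 and 9 with total-count scaling), with medians of -0.78 and -0.08 in the pairs.

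**Figure D5:**
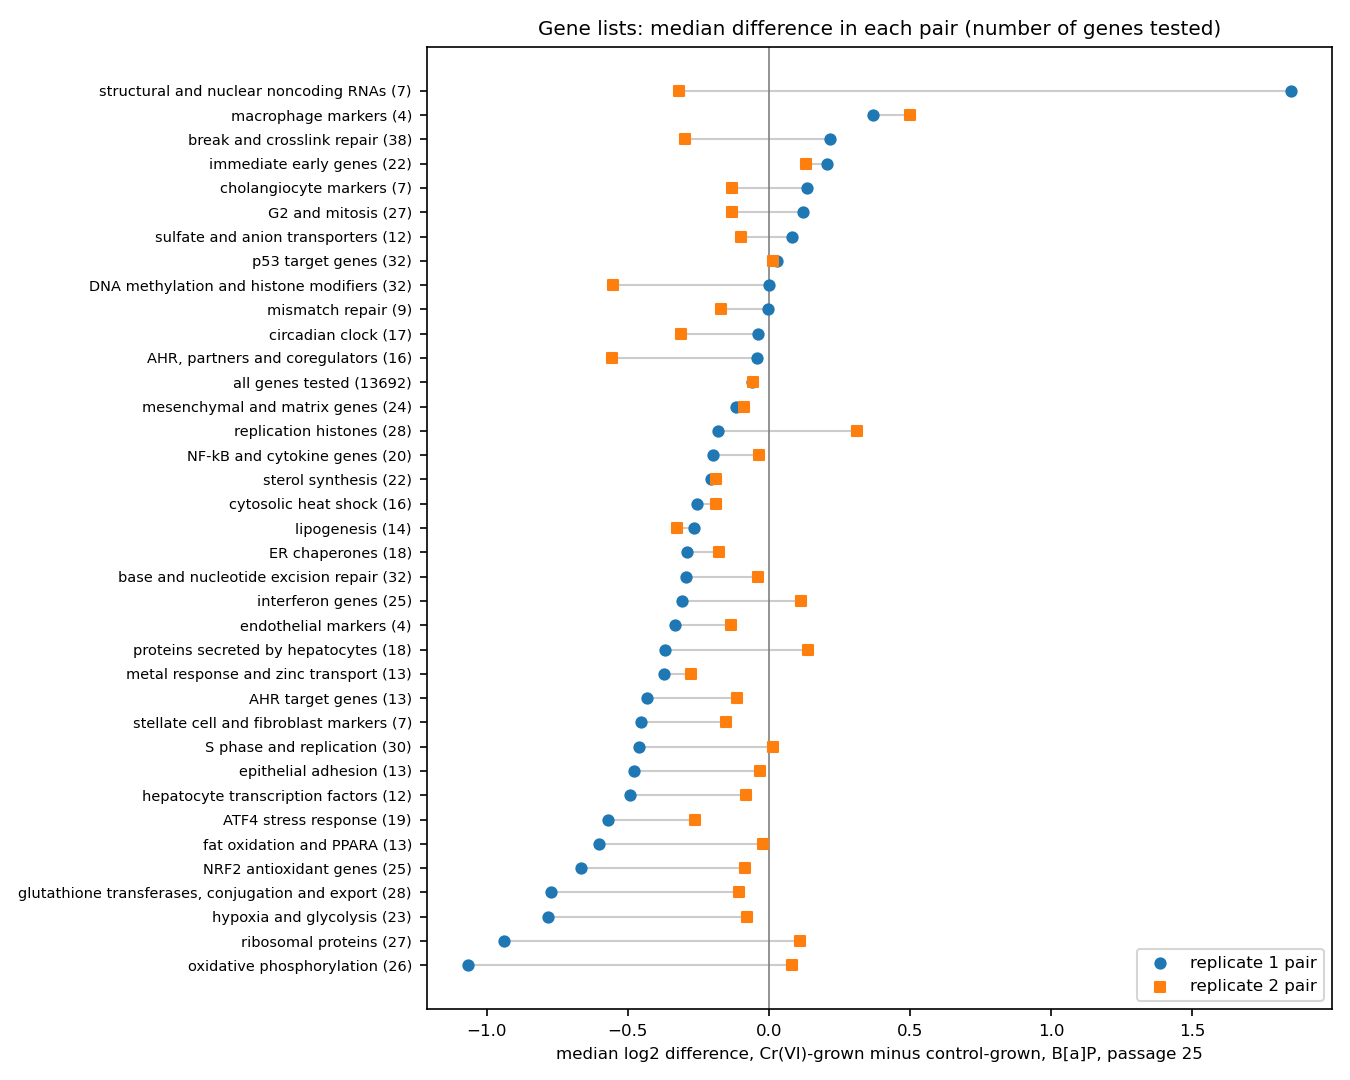
Median log2 difference between Cr(VI)-grown and control-grown cells under B[a]P at passage 25 for each gene list in the replicate 1 pair (circles) and the replicate 2 pair (squares), with the number of genes tested. Oxidative phosphorylation lies at -1.07 and 0.08, while immediate early genes (0.20 and 0.13) and lipogenesis (-0.26 and -0.33) have the 2 points close together.

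Metal response genes had 0 of 13 past the test, with 0 higher and 3 lower in both pairs, or 2 and 2 with total-count scaling. The metallothionein genes Mt1 and Mt2, whose proteins bind zinc and other metals, went opposite ways in the 2 pairs. Mt1 stood at 127 and 237 CPM in control-grown and 72.0 and 280 CPM in Cr(VI)-grown cells, and Mt2 at 36.9 and 69.6 CPM against 25.6 and 96.1 CPM. Under DMSO their log2 fold changes were 0.83 and 1.00. The zinc importer Slc39a4 stood at 9.71 and 16.5 CPM against 4.41 and 12.8 CPM. Sulfate and anion transporters, the route of chromate entry, had 2 higher and 3 lower of 12 (3 and 1 with total-count scaling), with the phosphate carrier Slc20a1 at 57.3 and 35.4 CPM against 106 and 39.1 CPM.

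No liver identity gene passed the test. Hepatocyte transcription factors had 2 higher and 8 lower of 12 in both pairs (2 and 6 with either other scaling), with the nuclear receptor Rxra at 40.1 and 51.5 CPM against 23.8 and 38.3 CPM, and Foxa1 at 16.9 and 13.0 CPM against 13.6 and 5.94 CPM. Secreted liver proteins had 2 higher and 6 lower of 18 (3 and 5 centred, 4 and 5 with total-count scaling). Alb stood at 2962 and 5290 CPM against 1351 and 4146 CPM, and Afp, the fetal albumin-like protein, at 149 and 214 CPM against 93.1 and 297 CPM. Apoe, a lipoprotein component, stood at 3.42 and 2.28 CPM against 14.1 and 4.41 CPM, without overlap. In such bulk samples fewer cells of a type and less RNA per cell cannot be told apart.

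The remaining lists held no gene past edgeR's test either, while DESeq2 called Krt19 (adjusted p = 0.0477). Interferon genes had 4 higher and 2 lower of 25 in both pairs (5 and 1 centred, 7 and 1 with total-count scaling). Mx1, an antiviral GTPase, stood at 1.35 and 0.367 CPM against 2.64 and 0.728 CPM. Cytokine and NF-kB genes had 6 higher and 9 lower of 20 (6 and 7 centred, and turned to 10 and 3 with total-count scaling), with the cytokine Lif at 35.6 and 22.5 CPM against 76.9 and 28.6 CPM. Epithelial adhesion genes had 1 higher and 7 lower of 13, Krt19 among them, but 1 and 3 centred and 1 and 4 with total-count scaling. Mesenchymal genes had 5 higher and 11 lower of 24, then 5 and 8, and 6 and 6. DNA methylation and histone modifiers had 0 higher and 13 lower of 32 (0 and 10 centred, 2 and 3 with total-count scaling), with the deacetylase Hdac4 at 10.9 and 7.86 CPM against 6.87 and 3.56 CPM. Clock genes had 1 higher and 10 lower of 17 (2 and 8 centred, 2 and 3 with total-count scaling), with the output factor Hlf at 26.0 and 17.8 CPM against 18.9 and 5.79 CPM.

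Some markers of other cell types were expressed enough to test, more of them for bile duct and stroma than for macrophages and endothelium. The bile duct marker Krt7 stood at 562 and 980 CPM in control-grown and 255 and 1341 CPM in Cr(VI)-grown cells. The macrophage marker Cd68, a lysosomal protein, stood at 2.65 and 2.75 CPM in control-grown and 4.56 and 4.75 CPM in Cr(VI)-grown cells. The groups did not overlap, and the log2 fold change was 0.78 ± 0.30 (SE) here, 0.76 under DMSO and 0.83 at passage 20, none past edgeR's test, while DESeq2 called Cd68 at passage 20. Of the 4 macrophage markers tested 2 were higher in both pairs and 0 lower, and Csf1r, the receptor for a macrophage growth factor, had log2 differences of -0.07 and 0.31. Stellate and fibroblast markers had 1 higher and 4 lower of 7 tested of 12, bile duct markers 2 and 2 of 7 tested of 9, and endothelial markers 0 and 1 of 4 tested of 10. With total-count scaling stellate and fibroblast markers had 2 and 2, bile duct markers 2 and 2, and endothelial markers 1 and 0. The summed stromal level ranged from 912 to 1203 CPM in control-grown and from 680 to 1371 CPM in Cr(VI)-grown cells. For bile duct markers the sum ranged from 772 to 1236 CPM and from 433 to 1503 CPM.

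The last comparisons asked whether growth with Cr(VI) had another effect under B[a]P at passage 25 than under DMSO or at passage 20. These differences share libraries with the comparison above and are not independent of it. For the difference from DMSO 0 of 13692 genes (0%) passed edgeR's test, with a smallest adjusted p of 0.213, while 337 genes were higher and 1805 lower at an unadjusted p under 0.05. DESeq2 called 484, 1 higher and 483 lower. Without control-grown B[a]P replicate 2 edgeR's test called 582. Under DMSO alone 0 genes (0%) passed, with 2343 at an unadjusted p under 0.05, and DESeq2 called 206.

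The genes with the smallest p for the difference from DMSO were Ppp1r26, Snord47, Hid1, Foxb1, Comtd1 and Mvb12a. Mvb12a, a subunit of the ESCRT-I sorting complex, had log2 fold changes of -0.83 under B[a]P and 1.38 under DMSO, a difference of -2.20 (adjusted p = 0.213 in edgeR's test). It stood at 99.0 and 187 CPM in control-grown and 32.9 and 182 CPM in Cr(VI)-grown B[a]P cells, and at 48.7 and 171 CPM against 160 and 331 CPM with DMSO. Hid1, a protein of the secretory pathway, had a difference of -1.22 and Comtd1, a methyltransferase-like protein, one of -1.61. Ppp1r26 and Foxb1 were under 1 CPM in all 8 libraries. Among the leading genes, Krt19 had a difference of -2.15 and Gpx2 of -1.08, and Apobr one of 0.07.

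For the difference from passage 20, 0 of 14343 genes (0%) passed edgeR's test, with 1137 at an unadjusted p under 0.05, and DESeq2 called 11. Without Cr(VI)-grown B[a]P replicate 2 of passage 25 edgeR's test called 5. The genes with the smallest p were Aox3, H1f2, Olfr417, Gm13212, Ccdc9b and Vmn2r15. Aox3, an aldehyde oxidase of liver, was the 1 gene (0.00697%) that passed at passage 20 under B[a]P, with a log2 fold change of -2.34 (adjusted p = 0.0149 in edgeR's test). At passage 25 it stood at 35.3 and 31.3 CPM in control-grown and 29.1 and 25.2 CPM in Cr(VI)-grown cells, without overlap, a log2 fold change of -0.30. The difference of 2.12 between the passages had an adjusted p of 0.502. Aox3 did not pass at passage 20 without the block, or without any 1 of the 4 libraries compared there.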

How the data were processed

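The deposited table holds raw counts per Entrez gene ID, 23373 IDs in 20 columns, each matched to a sample by its label. Per the submitters' processing notes bcl2fastq, CASAVA 1.8, TopHat, DESeq and the build mm10 were used; the counting program, the annotation and the use of strand were not given in the sources used here. Symbols and coordinates came from RefSeq on GRCm38.p6, the same build, for 23275 IDs. Titles carry 27, but samples were grouped by the passage label, 25.

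Genes were filtered with filterByExpr, scaled by TMM and fitted with edgeR 4.0.16 (R 4.3.3) quasi-likelihood models to the 12 libraries of passage 25, or to all 20 for the comparisons with passage 20. The replicate number was a block within each passage, because the comparison pairs libraries by it. That pairing was checked at passage 25: over 11646 genes the 15 correlations of replicate 2 minus replicate 1 differences between groups lay from 0.90 to 0.96. It was not checked here at passage 20, where an earlier analysis of these data had not found it clearly. The block and the pairs of passage 20 carry that limit. The fit to 12 libraries had 5 residual degrees of freedom. SEs are the log2 fold change divided by the square root of F. P-values are two-sided and adjusted over all genes tested (Benjamini-Hochberg, 0.05). Differences per pair use log2(CPM + 0.5). DESeq2 1.42.0, other scalings and filters, the fit without the block and fits without each library were alternatives. Scripts were tested on simulated data.

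Named genes were the 12 per direction with the smallest p among those at 1 CPM or more with 1 sign in both pairs, the 2 of smallest p in each of 36 lists, fixed pathway genes, and the 6 of smallest p in the differences from DMSO and from passage 20; some of these are not described. The members and lists were chosen with earlier results of these data known. Of 775 list entries 6 were not found. A list is described by counts and medians beside those of all genes.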

Additional observations from a re-analysis of the deposited data

How the results depend on the processing

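Duplicates, 5 residual degrees of freedom and 1 library that stood apart limit what could be called. For the comparison under B[a]P at passage 25 the count of genes past the threshold was 0 in every edgeR fit run, with and without the replicate block (no block: 0), and 17 with DESeq2. For the difference from DMSO it was 484 with DESeq2 and 0 to 582 without 1 library each, 582 without control-grown B[a]P replicate 2. For the difference from passage 20 it was 11 with DESeq2 and 0 to 5 without 1 library each. Under DMSO it was 206 with DESeq2 and 4 with no count filter. At passage 20 the 1 call became 0 without the replicate block, 96 with DESeq2, and 0 without each library. The cause of these changes was not tested.

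Among the log2 fold changes of named genes, 30 values under an alternative had the opposite sign to the main one. Without the replicate block in the same 12 libraries Cyp1b1 gave 0.14, Tiparp 0.19, Cdkn1a 0.0662 and Afp 0.104. In all 20 libraries without the block they gave 0.21, 0.27, 0.14 and 0.18, and Mt1 0.0242, and with the block Cdkn1a gave 0.0188. Upper-quartile scaling gave 0.0549 for Cdkn1a and 0.04 for Afp. Total-count scaling, chosen after seeing the data, gave 0.0184 for Cyp1a1, 0.0667 for Tiparp, 0.125 for Cdkn1a and 0.135 for Afp. Leaving out 1 library at a time gave -0.87 to 0.34 for Cyp1a1, -0.78 to 0.0944 for Cyp1a2, -0.95 to 0.67 for Cyp1b1, -0.62 to 0.40 for Tiparp, -0.85 to 0.0963 for Nqo1 and -0.66 to 0.89 for Hmox1. It gave -0.85 to 0.50 for Cdkn1a, -0.44 to 0.69 for Mdm2, -0.72 to 0.0984 for Mt1, -0.62 to 0.53 for Mt2 and -0.55 to 0.29 for Afp.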
